A study of Mus musculus with 8 samples.

Results

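The miRNA repertoire of newborn mouse calvaria was described from 3 small RNA libraries, called calvaria 1, 2 and 3 here (p64, p73 and p88 in the labels). The calvaria, the flat bones of the skull roof, were the parietal and frontal bones of female C57/B6 mice aged 2 to 3 days. All of these mice carried Prrx1-Cre, a Cre recombinase driven by a promoter of limb bud and cranial mesenchyme, so no library without the transgene stands beside them. The bones were digested briefly with collagenase and trypsin before freezing, which can release surface cells, and RNA was taken from the remaining whole tissue. The labels do not say whether the libraries came from separate animals or from pools, so the spread over them may be partly technical. A mature miRNA was kept where its mean over the 3 libraries reached 10 RPM (counts scaled to a common total per library): 374 of the 1281 mature miRNAs in the table were kept, in 3 of the 8 samples of the series. No groups were compared, so every value is a description, given as mean ± SD over n = 3 libraries.

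A miRNA is cut from a hairpin precursor whose arms, 5p and 3p, can each give a mature strand of its own. The strand held by an Argonaute protein finds messenger RNAs mainly through its seed, the bases just behind its 5′ end, and miRNAs with the same seed form a family with overlapping targets. Hairpins that lie close together on one strand of the genome are often cut from one transcript. In skull bone, these RNAs come from osteoblasts and their precursors, from the fibrous sutures, from cartilage at the margins of the skull roof, and from vessels, blood and any attached muscle. In whole tissue, fewer cells of a type and less RNA per cell cannot be told apart.

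Mature sequences from RefSeq (build GRCm38.p6) were matched to 307 of the 374 kept miRNAs. The following are those on which the composition turns, written 5′ to 3′ in lower case with the seed, bases 2 to 8, in capitals. The let-7 strands show how 1 seed is carried by different tails, and let-7j shows a seed that differs from it.
let-7i-5p: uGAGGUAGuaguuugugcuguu
let-7f-5p: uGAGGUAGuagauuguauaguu
let-7g-5p: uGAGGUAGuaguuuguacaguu
let-7j: uGAGGUAUuaguuugugcuguuau
The miR-148/152 strands share a second seed.
miR-148a-3p: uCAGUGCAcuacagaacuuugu
miR-152-3p: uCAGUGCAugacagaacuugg
miR-148b-3p: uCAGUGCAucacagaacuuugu
The miR-99/100 strands share a seed, with a different first base in miR-99b-5p.
miR-99a-5p: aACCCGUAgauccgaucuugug
miR-100-5p: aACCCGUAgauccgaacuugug
miR-99b-5p: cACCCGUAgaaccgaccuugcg
Both arms of the miR-199a hairpin were abundant, with different seeds, and the 3p strand is the same letter for letter in miR-199b.
miR-199a-3p: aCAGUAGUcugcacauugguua
miR-199b-3p: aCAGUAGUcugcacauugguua
miR-199a-5p: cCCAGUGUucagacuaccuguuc
The others are leading strands that shared their seed with no other matched member, or, for miR-26a, with a much rarer member.
miR-21a-5p: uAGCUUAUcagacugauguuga
miR-140-3p: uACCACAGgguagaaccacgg
miR-26a-5p: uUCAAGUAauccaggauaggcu
miR-126-3p: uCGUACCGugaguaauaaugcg
miR-127-3p: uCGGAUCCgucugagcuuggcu
miR-455-5p: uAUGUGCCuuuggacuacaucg

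The libraries held 1183011, 2023036 and 1343318 estimated counts, so the minimum of 10 RPM stood for 11.8, 20.2 and 13.4 counts. A count of 3, used as the limit of detection, stood for 2.54, 1.48 and 2.23 RPM. In all, 799 mature miRNAs were above 0 in some library, and the 374 kept held 99.9% of the counts of each. Of these, 343 reached 10 RPM in every library. The members just inside the minimum were miR-467d-5p and miR-466b-5p at 10.1 RPM and miR-187-3p at 10.0 RPM, and those just outside were miR-193a-3p at 9.94, miR-30b-3p at 9.91 and miR-874-3p at 9.89 RPM.

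A few miRNAs made up most of the repertoire. The 10 most abundant of each library held 54.3%, 54.8% and 55.9% of its counts, the 20 most abundant 73.4% ± 0.515 and the 50 most abundant 90.8% ± 0.341. It took 9, 9 and 8 miRNAs to reach 50% of a library, and 172, 172 and 171 to reach 99%. Read by level, 25 miRNAs at a mean of 10000 RPM or more held 78.5% ± 0.458 and 50 between 1000 and 10000 RPM held 16.5% ± 0.455. The 117 between 100 and 1000 RPM held 4.18% ± 0.0814. The 182 kept miRNAs under 100 RPM, the largest band by number, held 0.683% ± 0.00334. The shape of the distribution was thus nearly the same in the 3 libraries, while the order at its top was not: 8 miRNAs were among the 10 highest in every library, and 17 among the 20 highest.

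The 4 leading miRNAs overlapped within their spread. let-7i-5p, a member of the family that restrains growth and timing genes such as Hmga2 and Lin28, measured 85606, 85927 and 71758 RPM. miR-21a-5p, a widely expressed strand raised in growing and inflamed tissues, measured 71351, 54076 and 97400 RPM. miR-140-3p, from the cartilage hairpin inside Wwp2, measured 86014, 87452 and 46597 RPM. Calvaria 3 was the highest library for miR-21a-5p and the lowest for the other two. miR-148a-3p, a strand whose targets include the DNA methyltransferase Dnmt1, measured 47168, 64874 and 90592 RPM, with calvaria 1 lowest and calvaria 3 highest. Its rank ran from 7 in calvaria 1 to 2 in calvaria 3, and that of miR-140-3p from 1 to 7.

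The miRNAs ranked next by mean were steadier. miR-143-3p, known from smooth muscle and other mesenchyme, measured 52572, 50332 and 64103 RPM. miR-199a-3p, a mesenchymal strand, measured 54409, 55986 and 49959 RPM, and let-7f-5p 50833, 55622 and 47876 RPM. These 3 did not differ from each other beyond their spread. A clear step down led to miR-26a-5p, carried in introns or exons of genes for small phosphatases, at 34989 ± 2903 RPM, which lay below every value of these 3 in all libraries. After it came let-7g-5p at 29588 ± 5961, miR-199b-3p at 26644 ± 1576, miR-199a-5p at 25577 ± 3541, miR-99a-5p at 24751 ± 2703 and miR-100-5p at 24230 ± 924 RPM, with overlapping ranges. The last of the top 20 were miR-27b-3p at 17486 ± 1769, let-7c-5p at 13913 ± 1605, let-7a-5p at 13345 ± 2215, miR-126-3p at 12317 ± 5920 and miR-152-3p at 12184 ± 2094 RPM, and 2 names described next. miR-101a-3p, the miRNA named in the title of the study, measured 4296, 3765 and 4909 RPM, which placed it 38th, 38th and 35th.

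**Figure D1:**
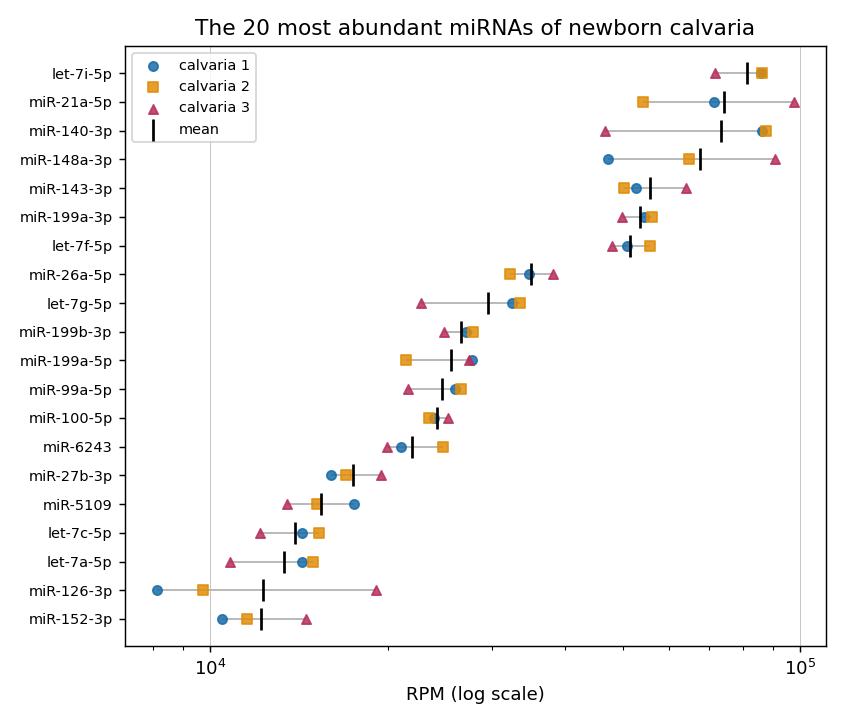
RPM (log scale) of the 20 miRNAs of highest mean in each of the 3 calvaria libraries, with grey lines from the lowest to the highest library and a black bar at the mean. Ranges overlap among the 4 leading miRNAs, and miR-140-3p in calvaria 3 lies at 46597 RPM against 86014 and 87452 in the other two.

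Some of these ranks depend on how reads were assigned. miR-199a-3p and miR-199b-3p are the same RNA, and the 3 precursor entries that list it carried almost the same value, for example 27121, 27287 and 27122 RPM in calvaria 1. Taken as 1 sequence it measured 81531, 83912 and 74843 RPM, which ranks 2 by mean and 3 in each library. Likewise let-7a-1-3p and let-7c-2-3p, identical in sequence, were listed with the same 160, 259 and 125 counts. The names miR-6243, at 21952 ± 2558 RPM and rank 14, and miR-5109, at 15396 ± 2003 RPM and rank 16, belong to a list of entries open to doubt as miRNAs. Of the 35 names on that list 25 were kept, and the whole list held 3.97% ± 0.258 of the counts. Whether those reads come from other RNAs was not tested.

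By seed, the 307 matched miRNAs, which held 85.7% ± 0.525 of the counts, fell into 249 families, of which 216 had 1 member. The 67 kept miRNAs without a matched sequence are in no family. Among them are miR-143-3p, at a mean of 55669 RPM, and miR-30d-5p, at a mean of 10363 RPM. Shares and ranks of families therefore hold for matched strands only. The 33 families with several members, 91 miRNAs in all, held 54.1% ± 1.25, and the 5 largest families of any size held 51.1% ± 1.02. The let-7 seed was far ahead: its 9 members summed to 21.1%, 21.9% and 17.6% of the libraries, lowest in calvaria 3. Within it let-7i-5p supplied 40.1% ± 0.810, let-7f-5p 25.5% ± 1.55 and let-7g-5p 14.5% ± 1.42, so the 3 strands printed first gave most of the family. The remaining members were let-7c-5p, let-7a-5p, let-7d-5p, let-7b-5p, let-7e-5p and miR-98-5p, which ran from 6.87% ± 0.0982 of the family down to 0.613% ± 0.130.

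let-7j stood outside that family by its seed, although its name places it there, and it was looked at after its value was seen. Counted from the 5′ end, its first 22 bases carried a single difference from let-7i-5p, G8U, which falls on the last base of the seed. Of the let-7 and miR-98 strands compared, none was as close to let-7i-5p: let-7g-5p had 2 differences and let-7f-5p 4, none of them in the seed. let-7j was listed at 4035, 3396 and 3915 RPM, far under let-7i-5p. Reads of let-7i-5p with 1 mismatch could not be told apart from let-7j in these tables.

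The miR-148/152 seed came second, at 5.84%, 7.72% and 10.7%, lowest in calvaria 1 and highest in calvaria 3 as for miR-148a-3p, which supplied 83.3% ± 2.24 of it. miR-152-3p, from an intron of Copz2, supplied 15.5% ± 2.21 and miR-148b-3p 1.19% ± 0.193. All 3 members were highest in calvaria 3, as were 133 of all 374 kept miRNAs, with miR-148b-3p at 748, 746 and 1402 RPM. The miR-199-3p seed held 8.01% ± 0.470. miR-21a-5p at 7.43% ± 2.18 and miR-140-3p at 7.34% ± 2.32 each formed a family alone, and the 4 families from the second to the fifth did not differ beyond their spread.

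The miR-99/100 seed, which is known for targeting Mtor, held 5.58% ± 0.188. miR-99a-5p gave 44.3% ± 3.42 of the family and miR-100-5p 43.5% ± 3.16, with the former lowest and the latter highest in calvaria 3, while miR-99b-5p gave 12.2% ± 0.260. The miR-26 seed held 3.81% ± 0.376, of which miR-26a-5p supplied 91.9% ± 1.69. miR-199a-5p held 2.56% ± 0.354, alone with its seed among matched members. The miR-27 seed held 2.09% ± 0.186, with 83.6% ± 0.992 from miR-27b-3p. The miR-181 seed, carried by 4 members, held 1.51% ± 0.0947, with 76.9% ± 1.60 from miR-181a-5p. Apart from miR-99/100, let-7 and miR-199-3p, 1 matched member thus supplied more than 2 times the sum of the others in each family of several members. This was among the 10 largest families of matched strands. Members of miR-199-3p could not be told apart.

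The base at the 5′ end, which the seed does not include, differed between a count of miRNAs and a count of reads. Argonaute proteins bind a strand with a 5′ U well, as background. U stood first in 43.6% of the 307 matched miRNAs but in 71.7% ± 0.781 of their RPM, A in 26.7% of miRNAs and 21.8% ± 0.746 of RPM, C in 19.2% and 5.35% ± 0.434, and G in 10.4% and 1.14% ± 0.0858. Among the 168 hairpins with both arms matched, the higher arm began with U in 85 and the lower arm in 36. Strands of 22 bases, 178 of the 307, held 73.3% ± 1.86 of their RPM, and strands of 21 bases, 52 in number, 17.8% ± 1.88.

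**Figure D2:**
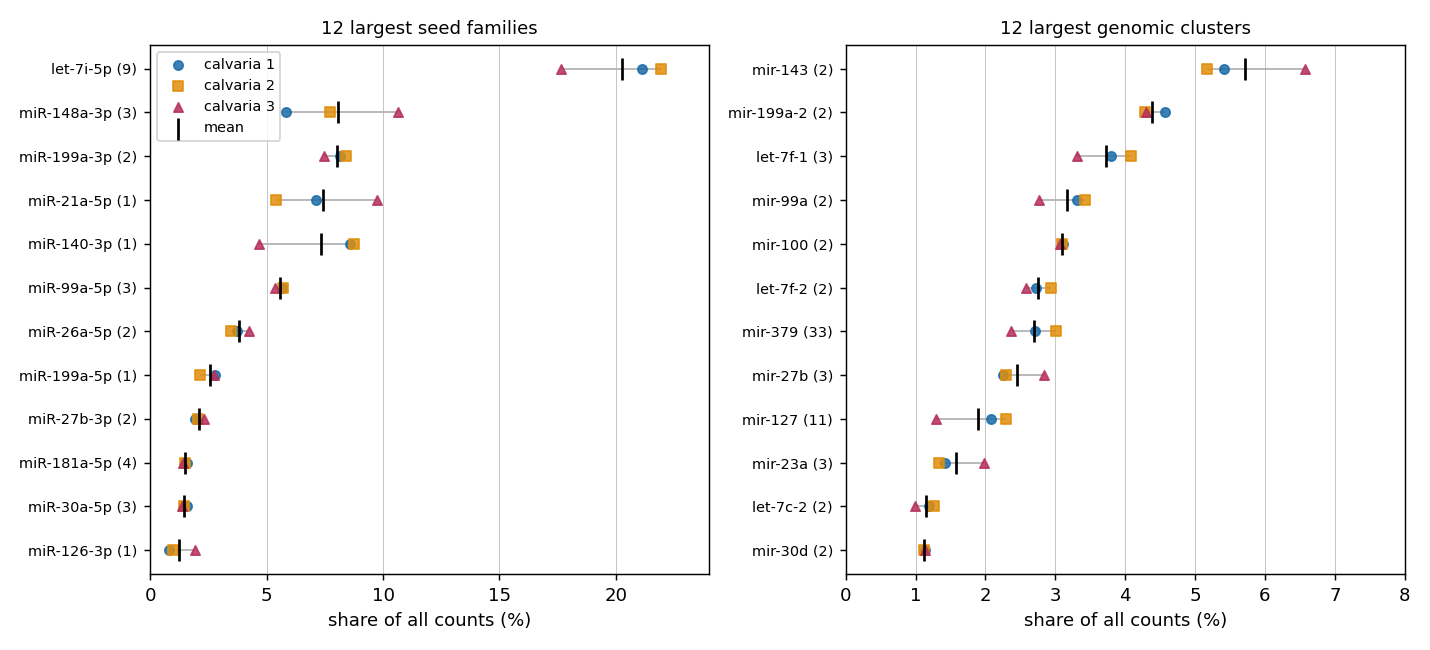
Share of each library's counts (%) held by the 12 largest seed families (left, named by their leading member, number of members in brackets) and the 12 largest genomic clusters (right, named by their leading precursor, number of precursors in brackets), with points for the 3 libraries and a bar at the mean. The let-7 seed holds 21.1%, 21.9% and 17.6%, while no cluster passes 7%. Families hold only strands with a matched sequence.

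In the genome, precursors on 1 strand were joined into a cluster where neighbours lay at most 10 kb apart (build GRCm38). Of 325 precursors with a kept strand, 317 had a position: 176 lay in 40 clusters and held 39.9% ± 0.822 of the counts, and 141 lay alone and held 56.2% ± 1.14. The 4 leading strands as named came from hairpins that lie alone. The merged miR-199-3p sequence, which ranks 2 by mean, is listed partly under mir-199a-2, which lies in a cluster. let-7i lies at chr10:122985640-122985724 on the minus strand in an exon of the noncoding gene D630033A02Rik, and mir-140 at chr8:107551244-107551313 on the plus strand within Wwp2, overlapping an annotated exon. mir-21a lies at chr11:86584067-86584158 on the minus strand, overlapping an exon of Vmp1, and mir-148a at chr6:51269812-51269910 on the minus strand outside annotated genes. By annotation, 65 precursors overlapping an exon held 44.2% ± 1.24, 149 in introns 23.2% ± 0.758 and 103 outside genes 28.7% ± 2.14. Exonic precursors were thus the fewest and held the most.

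The largest cluster joined mir-143 and mir-145a, known from smooth muscle, at 5.42%, 5.18% and 6.57%, with mir-143 supplying 97.6% of it. The second was mir-199a-2 with mir-214 (chr1:162217814-162223477, plus strand), which are carried by the mesenchymal transcript Dnm3os, at 4.39% ± 0.164. There mir-199a-2 supplied 90.3%, and miR-214-3p measured 3320 ± 241 RPM. In both of these clusters 1 precursor thus supplied most of the counts as listed. The miR-199-3p sequence was divided almost evenly between mir-199a-1, mir-199a-2 and mir-199b, at 27121, 27287 and 27122 RPM in calvaria 1. The share and rank of the second cluster, and the part of mir-199a-2 in it, follow that division.

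The let-7 and miR-99/100 families are spread over several clusters that join the families. let-7d, let-7f-1 and let-7a-1 (chr13:48536012-48538272, minus strand) held 3.73% ± 0.395. mir-99a with let-7c-1 (chr16:77598936-77599750, plus strand) held 3.17% ± 0.348, and mir-100 with let-7a-2 (chr9:41531425-41536811, plus strand) held 3.09% ± 0.0221. The last sum was almost constant over the libraries although let-7a-5p was lowest and miR-100-5p highest in calvaria 3. let-7f-2 with mir-98, in Huwe1 on the X chromosome (chrX:151912346-151913321, plus strand), held 2.75% ± 0.180. The table divided let-7a-5p and let-7f-5p nearly evenly between the loci that list them, so these cluster shares follow that division.

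The pair of clusters with miR-23, miR-27 and miR-24 were both highest in calvaria 3. mir-23b, mir-27b and mir-24-1 (chr13:63300484-63301275, plus strand) held 2.24%, 2.29% and 2.84%. mir-23a, mir-27a and mir-24-2 (chr8:84208518-84208921, plus strand) held 1.42%, 1.34% and 1.98%. In the first, miR-27b-3p led and miR-23b-3p measured 2541 ± 788 RPM. In the second, miR-23a-3p led at 5777, 5169 and 9618 RPM, while miR-27a-3p stayed at 3288, 3455 and 3500 RPM. The strands of 1 short cluster thus differed in how far calvaria 3 lay from the other libraries. miR-24-3p was listed with the same 4140, 3902 and 5482 RPM in both clusters. Their shares, and the lead of miR-23a-3p in the second, follow that even division.

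The imprinted Dlk1-Dio3 region of chromosome 12, whose miRNAs are transcribed from the maternal chromosome, held 46 precursors with a kept strand. Between Meg3 and Mirg (chr12:109541001-109749460), 65 of 116 listed strands were kept, beside 374 of all 1281 mature miRNAs. The whole list held 4.95%, 5.48% and 3.77%. Of the 65, 56 were lowest in calvaria 3 and 1 was highest there, beside 174 and 133 of all 374. The cluster led by mir-379 joined 33 precursors (chr12:109709060-109747960, plus strand) and held 2.70% ± 0.322, and that led by mir-127, which is antisense to Rtl1, joined 11 (chr12:109563692-109595388, plus strand) and held 1.89% ± 0.521. The largest cluster by number, 42 precursors led by mir-669c on chromosome 2 (chr2:10466944-10514395, plus strand), held 0.0797% ± 0.00233 by comparison. Levels within the 2 clusters of chromosome 12 spanned 905-fold and 1192-fold from the highest to the lowest precursor with a kept strand. The lowest, mir-666 at 12.6 RPM and mir-770 at 10.5 RPM, lay near the minimum of 10 RPM. The folds therefore hang on that minimum and do not give the full span. miR-379-5p measured 10497, 11877 and 11616 RPM and was not lowest in calvaria 3. miR-127-3p measured 12573, 14921 and 7629 RPM and miR-411-5p 4615, 5331 and 3645 RPM, both lowest there.

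Strands of the 5p arm (172 kept) held 53.8% ± 1.37 of the counts and strands of the 3p arm (171) 41.6% ± 1.48, and 31 names without an arm held the rest of the kept share. Precursors that share a mature strand were merged, which left 241 hairpins at 10 RPM or more with both arms listed. The 5p arm was the higher in 133 and the 3p arm in 108, by the mean log2 ratio, and the same arm was higher in all 3 libraries in 222. The higher arm was at least 10 times the lower in 142 hairpins, at least 100 times in 59, and under 2 times in 35. The ratios used the limit of 3 counts where an arm was at or under it, as in 97 hairpins, so the ratios of those hang on the limit.

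Arm use was extreme in most of the leading hairpins but not in all. For miR-21a, the 3p arm measured 5.46 ± 2.64 RPM against 74276 ± 21810 for 5p, a log2 ratio of 3p to 5p of -13.80 ± 0.69. For let-7i it was -10.29 ± 0.08, for let-7f -10.09 ± 0.27 and for miR-26a -10.27 ± 0.43, all toward 5p. The 3p arm of let-7g was under the limit of 3 counts, so no ratio is given. The log2 ratio was 8.63 ± 0.11 for miR-143 and 6.88 ± 0.48 for miR-148a, both toward 3p. Against these, miR-140 of the cartilage list and miR-199a and miR-199b of the mesenchymal list gave both strands at high levels. The 3p share of miR-140 was 87.2%, 88.02% and 84.6%, with miR-140-5p at 10996 ± 2177 RPM. That of miR-199a was 66.2%, 72.3% and 64.5%, and that of miR-199b 80.5%, 83.9% and 83.0%, although the shared 3p sequence leaves the last 2 uncertain. miR-455, another cartilage hairpin, leaned the other way, with a 3p share of 12.1% and 5p at 8986 ± 3194 RPM.

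**Figure D3:**
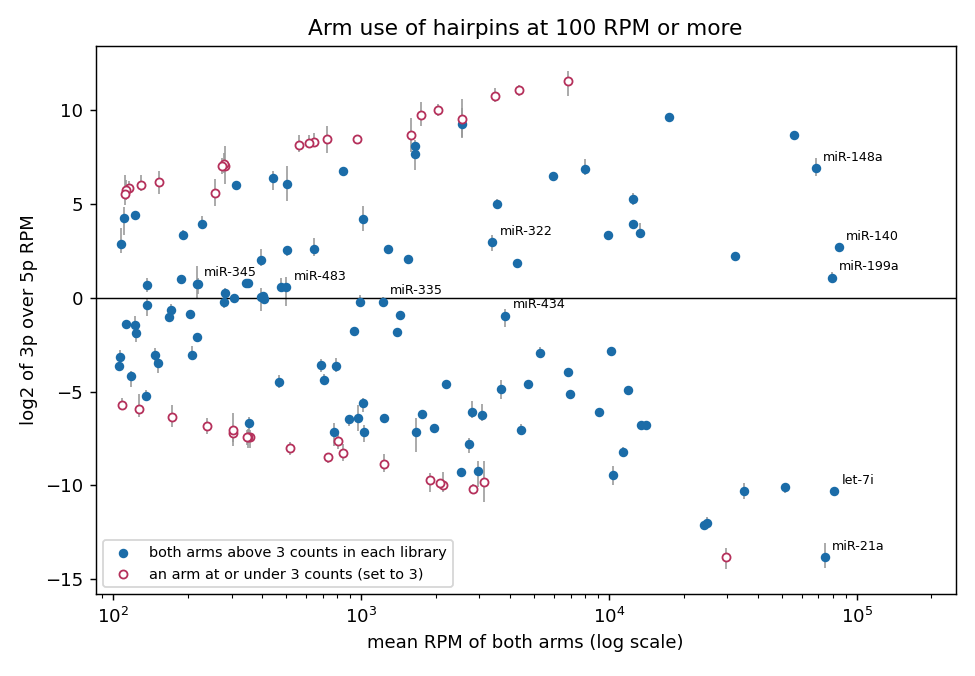
Mean log2 ratio of 3p to 5p RPM for the 148 hairpins at a mean of 100 RPM or more, against the mean RPM of both arms (log scale), with vertical lines from the lowest to the highest library and open circles where an arm was at or under 3 counts and was set to 3. The plot shows let-7i and miR-21a far below 0, miR-148a above 0, and miR-434, miR-483 and miR-345 near 0.

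Of the 148 hairpins at 100 RPM or more, 20 had arms within 2 times of each other, and in 10 the higher arm differed between libraries. The most even included miR-28a, with 3p shares of 50.4%, 45.8% and 53.1%, miR-409 with 46.9%, 49.0% and 50.9%, and miR-106b with 49.8%, 51.3% and 53.6%. miR-335, hosted by the imprinted gene Mest, had 46.3%, 42.3% and 50.7%, and miR-574 41.7%, 44.4% and 52.5%. In miR-483, hosted by Igf2, and miR-345 the share ranged more widely: the 3p share of miR-483 was 67.2%, 68.5% and 42.0%, and that of miR-345 49.1%, 60.8% and 76.0%. The other hairpins whose higher arm differed were miR-5117, miR-329 and miR-450b. Of the 10, only miR-574, miR-483 and miR-345 had a 3p share in calvaria 3 apart from both other libraries by the intervals given next. In the rest, calvaria 3 was not apart from both by that measure.

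The arms of 1 hairpin did not always move together between libraries. In 19 of the 148, the exact 95% binomial interval of the 3p share in calvaria 3 lay apart from those of both other libraries on the same side, below them in 7 and above them in 12. In 13 of the 148, the intervals of calvaria 1 and 2 lay apart from each other. All these intervals cover counting error alone. The 19 hairpins were listed after their values were seen. For miR-483, the 5p arm stayed at 197, 182 and 185 RPM while the 3p arm went from 403 and 396 to 134 RPM. For miR-434, in the Dlk1-Dio3 region, the 5p arm measured 2680, 2486 and 2260 RPM and the 3p arm 1645, 1645 and 755 RPM. In the other direction, miR-126-3p, from Egfl7, measured 8135, 9725 and 19091 RPM against 893, 1024 and 1232 RPM for miR-126-5p. The 3p share of miR-126 was thus 90.1%, 90.5% and 93.9%. miR-322, from the X chromosome cluster with miR-503, gave 3p shares of 89.3%, 90.9% and 84.7%, with its 3p arm the higher at 2985 ± 116 RPM.

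Levels agreed closely over the libraries in rank but differed by more than counting error. Spearman's rho over the 374 miRNAs, which share 1 protocol and their ligation and length preferences, was 0.988 between calvaria 1 and 2, 0.962 between 1 and 3 and 0.968 between 2 and 3. At 100 RPM or more, 192 miRNAs, the median absolute log2 difference was 0.12, 0.34 and 0.33 for these pairs, and 0, 17 and 10 miRNAs differed by more than 2-fold. Calvaria 3 was the library farthest from the median of the 3 for 127 of the 192, or 66.1%. The median coefficient of variation (SD over mean) was 18.8% over all 374 miRNAs, where counting error alone gave 7.89%, and 13.0% over the 75 at 1000 RPM or more, where it gave 1.27%. The spread was more than 2 times counting error for 71 of these 75. Without calvaria 3 the median over kept miRNAs was 8.55%.

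**Figure D4:**
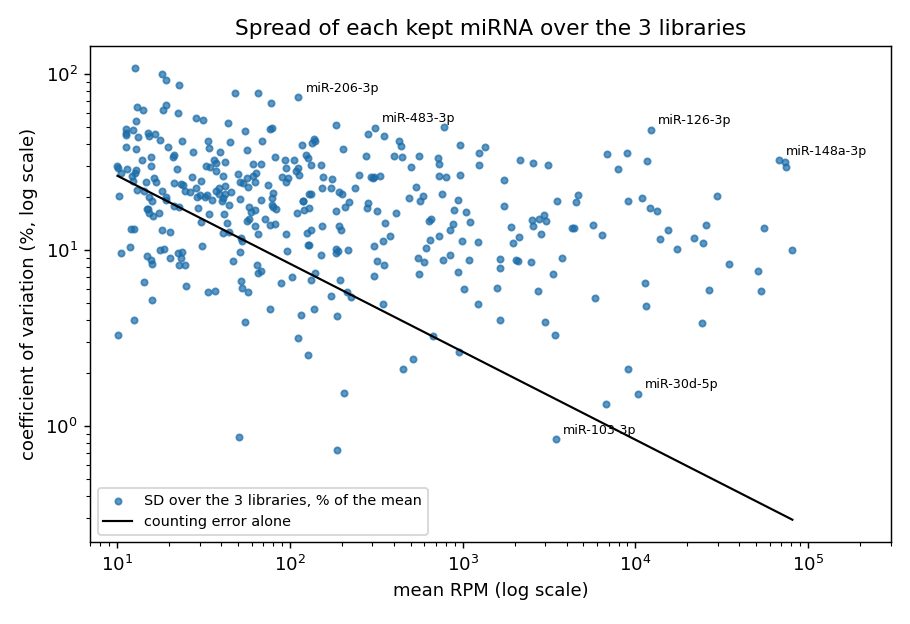
Coefficient of variation over the 3 libraries (%, log scale) against mean RPM (log scale) for the 374 kept miRNAs, with a black line at the value that counting error alone gives. Most abundant miRNAs lie above the line, with miR-206-3p, miR-483-3p and miR-126-3p among the highest of those at 100 RPM or more and miR-103-3p under the line.

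The steadiest miRNAs at 100 RPM or more were miR-125b-2-3p, with a coefficient of variation of 0.730%, and miR-103-3p, at 3478, 3421 and 3460 RPM. miR-99b-5p, miR-30d-5p and miR-106b-3p followed, at 1.33%, 1.52% and 1.53%. Counting error alone gave 6.10% for miR-125b-2-3p, 5.80% for miR-106b-3p and 1.42% for miR-103-3p, where the observed value was 0.840%. The spread of these strands lay under counting error, so it does not show a steadier level in the tissue. For miR-99b-5p and miR-30d-5p counting error gave 1.01% and 0.819%. The most variable was miR-206-3p, a skeletal muscle strand, at 87.1, 45.0 and 203 RPM. miR-5115, miR-5099 and miR-6240, all on the list of doubtful names, were among the 8 most variable, with miR-483-3p, miR-126-3p, miR-494-3p and miR-345-3p.

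Strands that mark other tissues were read beside this spread. Of all 374 kept miRNAs, 174 (46.5%) were lowest in calvaria 3 and 133 (35.6%) were highest there. The lists are short, and both arms of a hairpin come from 1 precursor, so they are not separate counts. Numbers of kept strands, here and below, stand beside 374 kept of all 1281 mature miRNAs. The rarer arm of a hairpin can miss the minimum while the other is kept. The cartilage list, both arms of miR-140 and miR-455, summed to 111611, 110887 and 61235 RPM, and all 4 strands were lowest in calvaria 3. The endothelial list, both arms of miR-126, summed to 9028, 10749 and 20323 RPM, both highest in calvaria 3. The striated muscle list summed to 368, 284 and 643 RPM: 3 of 13 strands were kept, all highest in calvaria 3, led by miR-1a-3p at 243, 202 and 381 RPM, and 7 strands were at 0, among them both arms of miR-208b. The blood list summed to 457, 553 and 693 RPM, with 8 of 15 strands kept, 5 of them highest in calvaria 3, and 1 at 0. miR-451a of red cells measured 85.4, 116 and 170 RPM, miR-146a-5p 132, 174 and 210 RPM, and miR-223-3p of myeloid cells 39.7, 29.2 and 32.8 RPM. The part that such cells have in the distance of calvaria 3 from the other libraries was not tested.

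The nervous system and epithelial lists held mean shares of 0.0670% and 0.00782% of the counts, beside 0.0568% for blood and 0.0432% for striated muscle. Of 16 strands on the nervous system list, 2 were kept, beside 374 of all 1281 mature miRNAs, and the list summed to 630, 712 and 668 RPM. Most of this was miR-128-3p, a strand not confined to neurons, at 542, 608 and 533 RPM, and miR-9-5p measured 57.5, 73.2 and 92.3 RPM. The neuronal miR-124-3p was at 0 in calvaria 1 and 3 and at 0.990 RPM in calvaria 2, under the limit of detection. The epithelial list summed to 82.0, 73.6 and 78.9 RPM, with miR-203-3p at 54.9 ± 2.14 and miR-200b-3p at 12.6 ± 3.44 RPM the 2 kept of 14, and 6 at 0.

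The list for mesenchyme and smooth muscle was kept in full, 10 of 10 strands, and was the largest of the tissue lists at 174581, 166495 and 177370 RPM, or 17.3% ± 0.565. Its sum differed little between the libraries, unlike that of the cartilage list at 9.46% ± 2.89. Its members did not all move alike: 3 of the 10 were lowest in calvaria 3 and 3 were highest there. Of miRNAs that lie in the Hox clusters, which record position along the body axis, 2 of 11 strands were kept: miR-10b-5p at 1565, 1954 and 2917 RPM and miR-10a-5p at 88.3, 121 and 172 RPM. Both were highest in calvaria 3, as were 133 of all 374 kept miRNAs. Of miR-196a and miR-196b, which lie at more posterior positions within the Hox clusters, no strand was kept, and miR-196a-5p was at 0, 0 and 1.48 RPM.

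Strands reported to act in osteoblasts were present at very different levels. Of 24 strands from hairpins reported to promote osteoblast differentiation, 10 were kept, beside 374 of all 1281 mature miRNAs. The list held 6.07%, 7.77% and 10.46%. Most of it was miR-148a-3p, followed by miR-101a-3p and by miR-322-3p, the arm of its hairpin that was higher. miR-218-5p, from a Slit gene, measured 2089 ± 181 RPM and miR-29a-3p, which targets collagen messages, 646 ± 73.04 RPM, while miR-29b-3p was at 17.8 ± 7.43 RPM and miR-2861 at 0. Of 43 strands from hairpins reported to restrain it, 28 were kept, and the whole list held 5.83% ± 0.479. This list was led by miR-30d-5p at 10363 ± 158, miR-24-3p at 9016 ± 1704 and miR-30a-5p at 9004 ± 190 RPM, whereas miR-34a-5p measured 62.9 ± 10.6 and miR-31-5p 21.2 ± 7.31 RPM. The median over the 10 kept strands of the first list was 1273 RPM, and over the 28 of the second 205 RPM. Kept strands include the lower arms of some hairpins, and the part of each list that was kept differed. These medians therefore do not rank the lists. Several members sit on more than 1 list, among them miR-206 and miR-214.

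**Figure D5:**
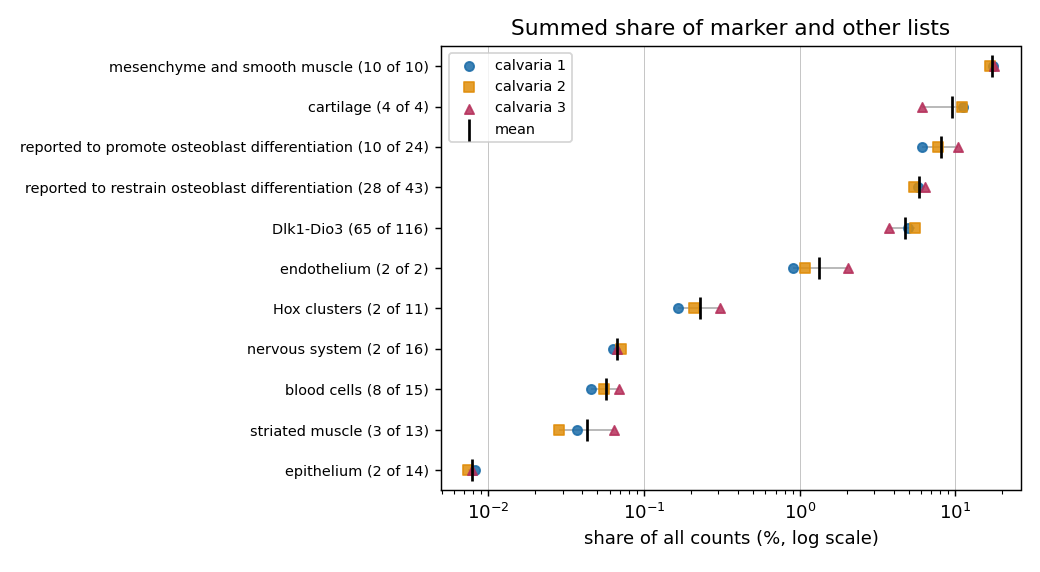
Share of each library's counts (%, log scale) summed over each list, with the number of strands kept of those listed in brackets, points for the 3 libraries and a bar at the mean. Cartilage runs from 6.12% in calvaria 3 to 11.2% in calvaria 1, endothelium from 0.903% to 2.03%, and mesenchyme and smooth muscle stays between 16.6% and 17.7%.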

How the data were processed

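Small RNA libraries were made with NEBNext reagents, per the labels' protocols. The authors deposited estimated counts per precursor and mature miRNA, of which 70.4% of nonzero calvaria values were whole within 0.005, so reads were divided between entries. They also deposited RPM, and these equalled count over library total within 0.0107. The submitters' processing notes name cutadapt 0.9.5, Bowtie 0.12.7 and mm10, with no role given. The quantifier's name and the miRBase release were not given in the sources used here. Another 5 per-sample columns of each table were not used.

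The 1418 entries were summed to 1281 mature miRNAs, and those at a mean of 10 RPM or more were kept. Seed families shared bases 2 to 8 of RefSeq sequences, 303 matched by name and 4 by symbol or synonym and arm. Clusters used GRCm38 positions with a step of 10 kb. No test was run. Intervals and the limit of 3 counts cover counting error only, since reads carried no molecular identifiers. Chi-square per degree of freedom between libraries was 36.0 or more, so no pair agreed within sampling noise. On simulated whole counts with counting error only, the arm ratio of miR-21a, the let-7 family share and the ratio of spread to counting error were recovered. Clusters, lists and intervals were not checked in this way. Python 3.11.15, pandas 2.3.3, numpy 2.4.6 and scipy 1.17.1 were used.

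Strands were named by a rule: the 20 highest, the highest 3 of the 10 largest families, 8 largest clusters and each list, the 10 highest, the 8 most even and up to 10 arm-changing hairpins, the 8 most and 5 least variable at 100 RPM or more, and the 3 on each side of the minimum. Members and lists were chosen with earlier results of these data known. The list of doubtful names was written after the kept names were seen. Other strands named were chosen after their values were seen.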

Additional observations from a re-analysis of the deposited data

How the results depend on the processing

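Over 30 summary values and 17 other settings, 204 of 238 recomputed values stayed within the spread between libraries, or within 1.5 times for a count, and 34 moved. Many of these could not have moved. Leaving out 1 of 3 libraries shifts a mean share by less than the SD of the 3. Another minimum leaves the shares of abundant strands as they were. The tally thus does not measure how robust the results are. The families, clusters and lists recomputed here were picked after a first look at the data.

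At a minimum of 100 RPM, 192 miRNAs, 129 families (19 with several members), 26 clusters (39.0% of counts) and 148 hairpins were left (65 with 3p higher, 83 with 5p higher, 138 with the same arm in every library), and the blood, nervous and epithelial lists held 0.0296%, 0.0561% and 0%. At 1 RPM there were 587 miRNAs and 381 families (57 with several members), and the epithelial list held 0.00767%. With no minimum there were 799 miRNAs. With the highest entry in place of the sum, the 10 leading miRNAs held 48.7%, let-7 16.4% and miR-199-3p 5.35%. Without the doubtful names, the 10 leading miRNAs held 57.3%, miR-99/100 5.81%, all clusters 41.6%, mir-199a-2 with mir-214 4.57% and the mesenchymal list 17.99%. With a step of 3 kb, all clusters held 31.0%, mir-199a-2 3.96% and the mir-379 cluster 2.06%, and with 50 kb all clusters held 44.6%. Added after seeing the data, families by the number in the name gave 93 with several members, miR-199 11.1% and miR-99 3.17%, and identical sequences merged gave 57.6% for the 10 leading miRNAs.

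Leaving out each library in turn, the median coefficient of variation ran from 8.55% (without calvaria 3) to 19.3%. The cartilage list ran from 8.61% to 11.1%, the endothelial list from 0.989% to 1.55% and the miR-148/152 family from 6.78% to 9.18%. No paired analysis was possible because only 1 group was described. At 10 RPM a value rests on 11.8 to 20.2 counts, which limits arm ratios and rare strands.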
